A study of Mus musculus with 4 samples.

Results

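The subject is a set of 36 known p53 target genes, measured by bulk RNA sequencing in LSK cells of aged mice. These bone marrow cells lack lineage markers, carry Sca1 and Kit on their surface, and include the blood stem cells and the earliest progenitors. The genes were chosen by name from what is known of p53, but with earlier results of these data known. They leave out the CDK inhibitors, Btg2, the sestrins, Ddit4, Foxo3 and Tap1, and all 36 symbols were found among the 24421 genes of the deposited table. There were 2 libraries from mice labelled p53R248W/+, which carry a mutant p53 allele beside a normal one, and 2 libraries from wild-type (WT) mice. All mice were 13 to 15 months old. The labels state neither how the allele was made, nor whether animals were pooled, nor whether the libraries of a genotype came from separate animals. The p-values thus reflect the spread of these 4 libraries alone, estimated in part over many genes together. That spread may be of technical origin.

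The tumour suppressor p53 is a transcription factor that binds DNA as a tetramer, at a paired element near or inside its target genes. After DNA damage or other stress it raises genes that stop the cell cycle, repair DNA, adjust metabolism or start apoptosis, and it also feeds back on its own activity. In blood stem cells it is known for its part in quiescence and in the death of damaged cells. R248W replaces an arginine in the DNA-binding domain that touches DNA.

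Libraries held 12111126 to 14820759 counted reads. On the leading principal component of the 13296 genes tested, with 43.2% of the variance, p53R248W/+ replicate 1 (at -60.6) and WT replicate 1 (at 82) lay at opposite ends and both replicates 2 in between. Kit was at 1180 and 1110 CPM (counts set to one common library size after TMM scaling) in p53R248W/+ and at 911 and 998 CPM in WT. The Sca1 gene Ly6a was at 81.1 and 70.8 CPM in p53R248W/+ and at 40.2 and 82.9 CPM in WT. Among the marker lists of other cells, the sums of 3 did not overlap between the genotypes. Taken gene by gene, 33.6% of all tested genes did not overlap. The sums of the 10 LSK marker genes did not overlap either, at 4670 and 4340 CPM in p53R248W/+ and at 3640 and 3980 CPM in WT. The B cell list, with 1 of 8 genes (Pax5) without counts, was at 27.5 and 18.7 CPM in p53R248W/+ and at 7.04 and 11.3 CPM in WT, most of it Cd79b, and without Cd79b at 7.35 and 6.61 CPM against 2.37 and 2.31 CPM. The 5 megakaryocyte genes were at 57.1 and 46.2 CPM in p53R248W/+ and at 103 and 110 CPM in WT, but overlapped without Itga2b (23.3 and 18.4 CPM against 18.3 and 44.8 CPM). The 5 genes of stroma and endothelium were at 112 and 101 CPM in p53R248W/+ and at 70.4 and 50.9 CPM in WT. Nearly all of this was Pecam1, and the rest was at 7.55 and 0.165 CPM in p53R248W/+ and at 0 and 0.14 CPM in WT. The stromal gene Lepr had 84 counts in p53R248W/+ replicate 1 and at most 1 in the other libraries. Cxcl12 had no counts, and Col1a1 had at most 2 in any library. Whether the reads of Pecam1 and Itga2b came from other cells or from the LSK cells themselves was not tested. The 6 T and NK cell genes, with Cd3g without counts, overlapped at 81 and 67.7 CPM in p53R248W/+ and 69 and 82.5 CPM in WT, mostly from Klrb1c and Nkg7. The 12 mitosis genes followed the replicate number instead, with sums of 1260 and 2480 CPM in p53R248W/+ and of 1610 and 2510 CPM in WT. Granulocyte and monocyte genes were at 732 and 649 CPM in p53R248W/+ and at 1430 and 404 CPM in WT, so WT replicate 1 was the highest library. The part of these lists in the values of the p53 target genes was not tested. In bulk samples, fewer cells of a type and less RNA per cell cannot be told apart.

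The p53 response element is the 20-letter sequence that p53 is known to bind, made of a pair of like parts that read the same on either strand. It was searched for without a spacer in RefSeq promoter windows (GRCm38.p6), which run from 250 bases before a gene's start to 50 after it. Windows were found for 26 of the 36 genes, 40 windows in all. The 10 genes without a window were not searched. They were Xpc, Pvt1, Rrm2b, Pmaip1, Zmat3, Trp53inp1, Ddb2, Tnfrsf10b, Perp and Trp53cor1. Of these, 9 windows (22.5%), from 8 genes, matched the element in at least 17 of its 20 letters, as did 6.29% of all 32851 windows. At least 18 letters matched in 3 of the 40 windows (7.5%) and in 0.798% of all windows. The sequences given are the 3 best matches, in Ccng1, Gtse1 and Ckap2, and those of the classical death genes Bax and Bbc3. Members with a match of at least 17 letters can thus be followed in the values. The matched 20 letters are in capitals with 20 bases on each side, on the strand of the gene.
Ccng1, chr11:40755442-40755501, minus strand, 19 letters: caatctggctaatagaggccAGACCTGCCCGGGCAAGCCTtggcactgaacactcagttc
Gtse1, chr15:85859925-85859984, plus strand, 19 letters: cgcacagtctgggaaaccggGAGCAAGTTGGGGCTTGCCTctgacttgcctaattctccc
Ckap2, chr8:22185983-22186042, minus strand, 18 letters: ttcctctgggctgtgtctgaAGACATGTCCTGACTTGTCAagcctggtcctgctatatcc
Bax, chr7:45467070-45467129, minus strand, 17 letters: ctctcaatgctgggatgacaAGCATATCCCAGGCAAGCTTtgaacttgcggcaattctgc
Bbc3, chr7:16309466-16309525, plus strand, 17 letters: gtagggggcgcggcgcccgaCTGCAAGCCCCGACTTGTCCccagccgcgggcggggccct
The matches begin 195 bases before the start in Ccng1, 203 before it in Ckap2, 211 before it in Bax and 97 before it in Bbc3, and the match of Gtse1 begins at the base before an annotated start. A match of letters is a description of the window and no measure of binding. All 20 letters counted alike in the search. In the Bax match, the first of the paired parts lacks the C and the G that are its only fixed letters. The other genes with 17 matching letters were Aen, Polk and Tigar.

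The question was whether p53 target genes stood at another level in aged LSK cells with a mutant p53 allele. No member passed. Of the 36 genes, 34 passed the filter on low counts and were tested, and 0 of them reached an adjusted p of 0.05 in the edgeR quasi-likelihood test (adjusted p = 0.824 to 0.999), where 0% of all genes did. At an unadjusted p under 0.05 there were also 0 members, against 5.87% of all genes tested. DESeq2 and limma-voom called 0 members too, and DESeq2 had 1 member, Xpc, at an unadjusted p under 0.05. The log2 fold changes of p53R248W/+ over WT ran from -2.34 to 1.05, with a median of -0.18 where that of all genes was 0. That median depended on the libraries and the filter, at -0.29 without WT replicate 1, at -0.01 without WT replicate 2, and at 0.01 over the 25 members left by a stricter filter, of which 12 were below 0. They were below 0 for 19 members and above it for 15, while 50% of all genes were below it. The 2 libraries of one genotype both lay beyond those of the other for 10 of the 34 members (29.4%), near the 33.6% found over all genes. Of these 10, 7 were lower and 3 higher in p53R248W/+, where 16.6% of all genes were lower and 16.9% higher. Among the lower ones, Eda2r and Dcxr reached the filter level in both WT libraries but not in both p53R248W/+ libraries. They thus entered the test through WT, and 0 members entered it through p53R248W/+ in this way.

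**Figure D1:**
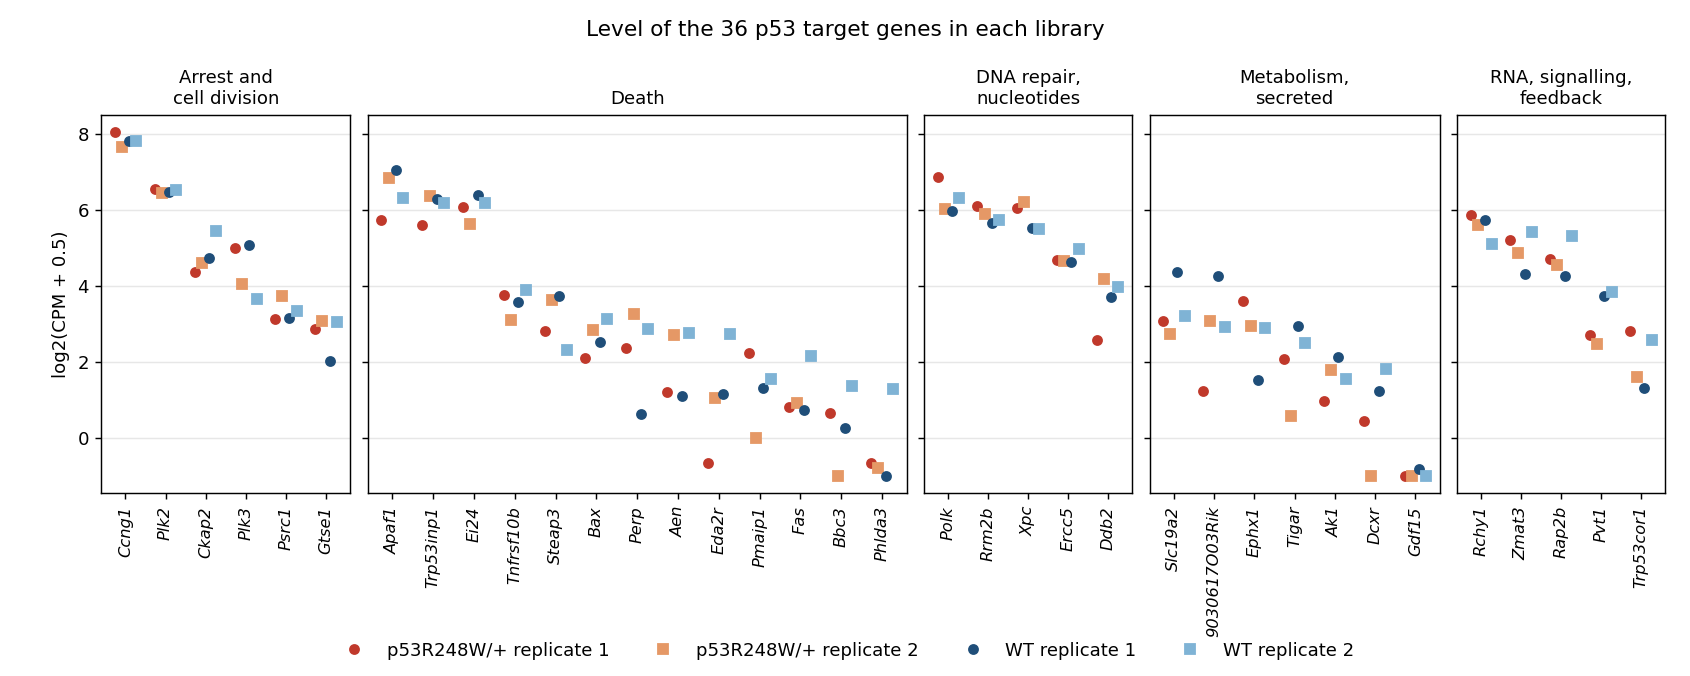
Level of each of the 36 p53 target genes in each library, as log2(CPM + 0.5), with red shades for the p53R248W/+ libraries and blue shades for the WT libraries, in panels by role. Ccng1 is the highest gene in every library and Gdf15 sits at the bottom, and for most genes the red and blue points are mixed.

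Target genes of LSK cells spanned a wide range of levels. Ccng1, which encodes cyclin G1, was highest, at a mean of 65.9 RPKM (CPM divided by exon length in kilobases), followed by Plk2 at 32.3 RPKM, Ei24 at 29.8 RPKM, Rchy1 at 19.8 RPKM and Polk at 19.2 RPKM. In counts not divided by length, 8 members averaged at least 50 CPM, 9 lay from 10 to 50 CPM, 16 from 1 to 10 CPM and 3 under 1 CPM. Those 3 were Bbc3, Phlda3 and Gdf15. The members together summed to 1080 and 1020 CPM in p53R248W/+ and to 1080 and 1070 CPM in WT. Ccng1 alone gave 24.6% and 19.9% of that sum in p53R248W/+ and 21% and 21.2% in WT.

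Genes of arrest and cell division came to 6, all tested. Ccng1 (mm10 chromosome 11, 40748552 to 40755286) was at 266 and 202 CPM in p53R248W/+ and at 225 and 226 CPM in WT. The WT libraries lay between the p53R248W/+ libraries, and the log2 fold change was 0.06 ± 0.19 (SE, n = 2 each) with a 95% interval from -0.35 to 0.46 (adjusted p = 0.981, edgeR quasi-likelihood test). Plk2, a polo-like kinase induced by stress, was at 94.4 and 86.8 CPM in p53R248W/+ and at 89.5 and 91.7 CPM in WT. Its 4 libraries were the most alike of the group, and its 95% interval ran from -0.53 to 0.53. Its relative Plk3 was at 31.9 and 16.1 CPM in p53R248W/+ and at 33.5 and 12.3 CPM in WT. Both replicates 1 of Plk3 were high and both replicates 2 low, which left a log2 fold change of 0.10 ± 0.52 (SE), and 76 of its exon bases are shared with Tctex1d4.

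Ckap2, Gtse1 and Psrc1 act on the mitotic spindle or late in the cell cycle. Ckap2, a protein of the spindle, was at 20.2 and 23.9 CPM in p53R248W/+ and at 26.5 and 43.2 CPM in WT. Neither p53R248W/+ library reached the lower WT library, with a log2 fold change of -0.67 ± 0.44 (SE; adjusted p = 0.838, edgeR quasi-likelihood test) that was -0.27 without WT replicate 2. Gtse1, which in human cells moves p53 out of the nucleus, was at 6.88 and 8.01 CPM in p53R248W/+ and at 3.63 and 7.86 CPM in WT. WT replicate 1 was the low library, and the log2 fold change of 0.37 ± 0.76 (SE) was 1.03 without WT replicate 2 and -0.09 without WT replicate 1. Psrc1, a microtubule-binding protein, was at 8.36 and 12.8 CPM in p53R248W/+ and at 8.51 and 9.61 CPM in WT, so the groups overlapped. For each of these genes replicate 2 was higher than replicate 1 in both genotypes, as it was for the sum of the mitosis genes, and the part of cycling cells in these values was not tested.

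**Figure D2:**
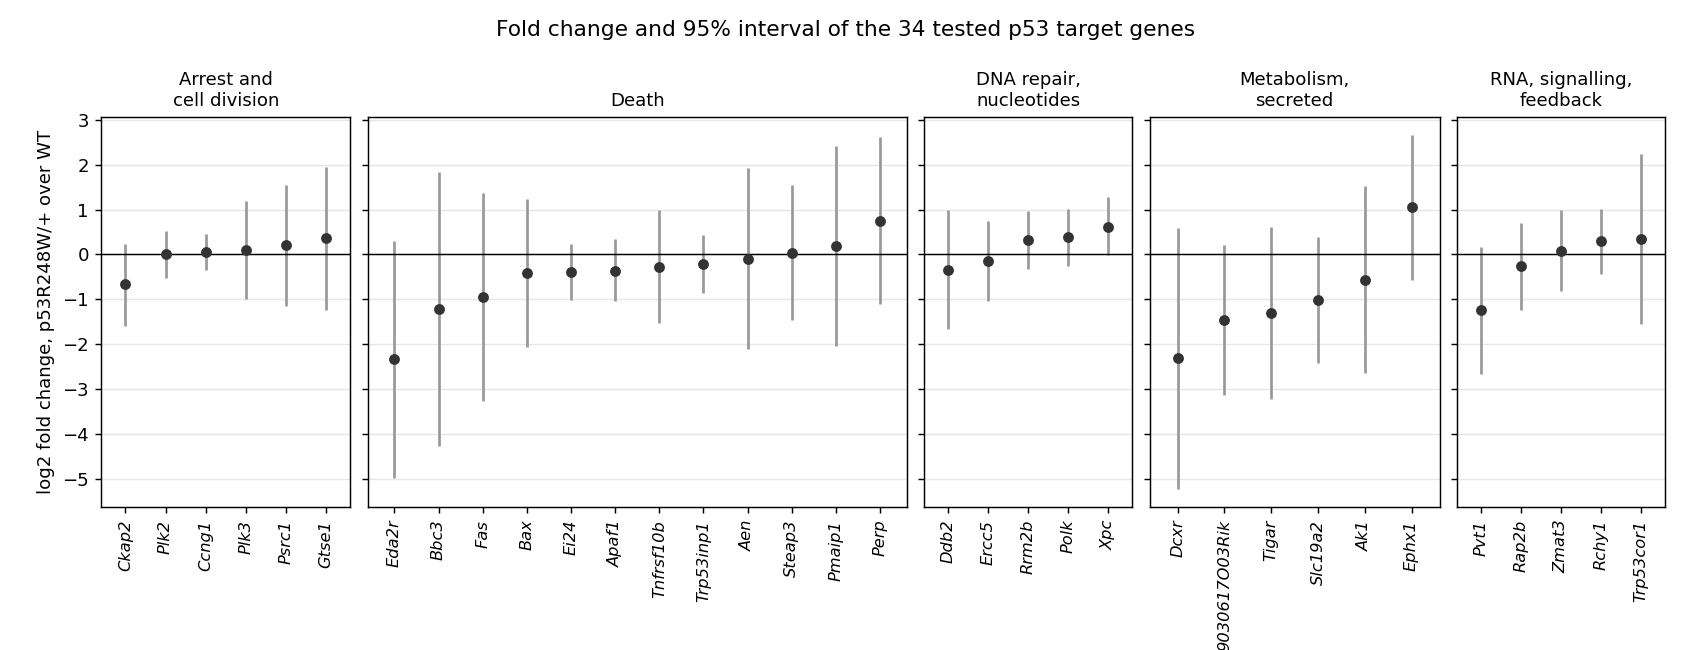
Log2 fold change of p53R248W/+ over WT (points) with its 95% interval (bars) for the 34 tested p53 target genes, in panels by role and ordered by fold change. Every interval crosses 0, that of Xpc by the least (from -0.02 to 1.27), and the intervals of Dcxr and Eda2r reach the lowest values, -5.24 and -4.99.

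Among the 13 genes of cell death, 12 were tested, 9 with a log2 fold change below 0 and 3 above it. Their median was -0.31, and Eda2r (below 0) and Pmaip1 (above 0) entered the test through their WT libraries. The most abundant were Apaf1, the scaffold of the apoptosome, Trp53inp1, a nuclear cofactor of p53 with a role in autophagy, and Ei24, a membrane protein of the endoplasmic reticulum. Ei24 was at 68 and 49.3 CPM in p53R248W/+ and at 83.4 and 72.2 CPM in WT. The p53R248W/+ libraries were both lower, by a log2 fold change of -0.39 ± 0.30 (SE; adjusted p = 0.872, edgeR quasi-likelihood test) with an interval from -1.01 to 0.23. Apaf1 was at 53.2 and 115 CPM in p53R248W/+ and at 132 and 79.6 CPM in WT. Its groups overlapped, and the log2 fold change of -0.36 ± 0.33 (SE) turned to 0.12 without p53R248W/+ replicate 1 and to 0.06 without WT replicate 1. Trp53inp1 was at 48.6 and 83.2 CPM in p53R248W/+ and at 78.4 and 72.5 CPM in WT, with p53R248W/+ replicate 1 as the low library.

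Bax and the BH3-only genes Bbc3 and Pmaip1 act on the outer mitochondrial membrane, at mean levels of 6.96, 0.491 and 0.869 RPKM. Bax, the pore-forming member, was at 3.84 and 6.69 CPM in p53R248W/+ and at 5.30 and 8.35 CPM in WT. The groups overlapped, with a log2 fold change of -0.41 ± 0.79 (SE) and an interval from -2.06 to 1.24. Bbc3, which encodes PUMA, had 16 and 0 counts in p53R248W/+ and 10 and 30 counts in WT, or 1.08 and 0 CPM against 0.697 and 2.10 CPM. Its interval, from -4.28 to 1.83, covers large differences either way. Pmaip1, which encodes NOXA, was at 4.25 and 0.496 CPM in p53R248W/+ and at 2.02 and 2.45 CPM in WT. The p53R248W/+ replicates differed by 3.10 on the log2 scale, and a log2 fold change of 0.19 ± 1.06 (SE) became -2.15 when p53R248W/+ replicate 1 was left out.

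Among the receptors, mean levels were 3.72 RPKM for Tnfrsf10b, 1.09 RPKM for Fas and 0.416 RPKM for Eda2r. Eda2r, a receptor of the TNF receptor family on the X chromosome, had 2 and 19 counts in p53R248W/+ and 25 and 89 counts in WT, or 0.135 and 1.57 CPM against 1.74 and 6.24 CPM. Both p53R248W/+ libraries were lower, with a log2 fold change of -2.34 ± 1.27 (SE; adjusted p = 0.825, edgeR quasi-likelihood test) and an interval from -4.99 to 0.31. Leaving out WT replicate 2 gave -1.14, and leaving out p53R248W/+ replicate 1 gave -1.34. Eda2r entered the test through its WT libraries. Fas, the receptor of Fas ligand, was at 1.28 and 1.40 CPM in p53R248W/+ and at 1.19 and 4 CPM in WT, where WT replicate 2 alone was high. Tnfrsf10b, the mouse TRAIL receptor, was at 13.1 and 8.18 CPM in p53R248W/+ and at 11.6 and 14.5 CPM in WT, so the groups overlapped.

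For the other tested death genes the genotypes overlapped. Perp, a membrane protein of desmosomes, was at 4.65 and 9.09 CPM in p53R248W/+ and at 1.05 and 6.87 CPM in WT. Aen, a nuclease, was at 1.82 and 6.03 CPM in p53R248W/+ and at 1.67 and 6.31 CPM in WT, so both replicates 2 were high. Steap3, a metalloreductase of iron uptake, was at 6.61 and 11.9 CPM in p53R248W/+ and at 13 and 4.49 CPM in WT. WT replicate 1 was the highest and WT replicate 2 the lowest library for Steap3. Phlda3, an inhibitor of Akt signalling, had 2 and 1 counts in p53R248W/+ and 0 and 28 counts in WT, so that WT replicate 2 held nearly all of its reads, and it was not tested.

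Of the 5 DNA repair genes, Xpc, Rrm2b and Ercc5 had close replicates, while Ddb2 and Polk did not. Xpc (chromosome 6, 91489307 to 91515888), which detects damage for global nucleotide excision repair, was at 66.2 and 73.9 CPM in p53R248W/+ and at 45.8 and 44.8 CPM in WT. The p53R248W/+ libraries were both higher, at 70 ± 5.49 CPM against 45.3 ± 0.658 CPM in WT (SD, n = 2 each). Its log2 fold change of 0.62 ± 0.31 (SE) had the smallest p of the members and missed the threshold over all genes (unadjusted p = 0.0577, adjusted p = 0.824, edgeR quasi-likelihood test), and leaving out each library gave 0.55 to 0.71. Ddb2, which acts at the same step of damage recognition, was at 5.46 and 17.7 CPM in p53R248W/+ and at 12.7 and 15.2 CPM in WT. The p53R248W/+ libraries of Ddb2 enclosed the WT values, and 642 of its exon bases are shared with Acp2, so its counts are less certain. Ercc5, the nuclease that cuts on one side of the damage, was at 25.4 and 24.7 CPM in p53R248W/+ and at 24.3 and 31.2 CPM in WT.

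Rrm2b, the p53-induced subunit of ribonucleotide reductase, was at 69 and 59.7 CPM in p53R248W/+ and at 50.1 and 53.1 CPM in WT. Each p53R248W/+ library of Rrm2b was above both WT libraries, by a log2 fold change of 0.33 ± 0.31 (SE; adjusted p = 0.898, edgeR quasi-likelihood test) that stayed above 0 without each library in turn (0.21 to 0.42). Polk, a polymerase that copies past damaged bases, was at 117 and 65.3 CPM in p53R248W/+ and at 62.6 and 80 CPM in WT. One p53R248W/+ library stood above the others, and the log2 fold change of 0.38 ± 0.30 (SE) was -0.13 without it. Of the 5 repair genes, 3 had a log2 fold change above 0 and 2 below it.

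Metabolic and secreted targets were mostly low in level, and 5 of the 6 tested had a log2 fold change below 0, with a median of -1.16. In 4 of the 6 the genotypes did not overlap, 3 lower and 1 higher in p53R248W/+, where 33.6% of all genes did not, 16.6% lower and 16.9% higher. One of the lower genes, Dcxr, entered the test through its WT libraries. Tigar, a phosphatase that slows glycolysis, was at 3.78 and 0.991 CPM in p53R248W/+ and at 7.25 and 5.19 CPM in WT. Both p53R248W/+ libraries were lower, with a log2 fold change of -1.30 ± 0.91 (SE; adjusted p = 0.857, edgeR quasi-likelihood test) that ranged from -2.64 to -0.72 when single p53R248W/+ libraries were left out. Slc19a2, a thiamine transporter, was at 7.96 and 6.19 CPM in p53R248W/+ and at 20.2 and 8.84 CPM in WT. Its log2 fold change of -1.02 ± 0.67 (SE) rested largely on WT replicate 1, without which it was -0.30.

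Dcxr, a reductase of carbonyls and sugars, had 13 and 0 counts in p53R248W/+ and 27 and 43 counts in WT. Both p53R248W/+ libraries were lower, and its log2 fold change of -2.32 ± 1.39 (SE) had an interval from -5.24 to 0.59, and was -1.47 when p53R248W/+ replicate 2, the library without counts, was left out. The gene 9030617O03Rik, now named Dglucy and encoding a mitochondrial enzyme of D-glutamate, was at 1.89 and 8.01 CPM in p53R248W/+ and at 18.7 and 7.08 CPM in WT. WT replicate 1 was highest and p53R248W/+ replicate 1 lowest, and the log2 fold change of -1.47 ± 0.80 (SE) ranged from -2.77 to -0.60 with single libraries left out. Ephx1, an epoxide hydrolase that detoxifies foreign compounds, went the other way, at 11.8 and 7.27 CPM in p53R248W/+ and at 2.37 and 7.01 CPM in WT. WT replicate 2 lay close under p53R248W/+ replicate 2, and the log2 fold change was 1.05 ± 0.77 (SE; adjusted p = 0.870, edgeR quasi-likelihood test), or 0.47 without WT replicate 1. Ak1, an adenylate kinase, was at 1.48 and 2.97 CPM in p53R248W/+ and at 3.91 and 2.45 CPM in WT. Gdf15, a secreted stress cytokine, had 1 count, in WT replicate 1, and none in the other libraries, which is under the floor of 3 counts (0.202 to 0.248 CPM) and covers counting error only.

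The last 5 members act as RNA, in signalling or in feedback on p53. Pvt1 (chromosome 15, 62037987 to 62250975), a long noncoding RNA whose gene neighbours Myc, was at 6.14 and 5.04 CPM in p53R248W/+ and at 12.8 and 14 CPM in WT. Its groups were well apart and its replicates close, at 5.59 ± 0.777 CPM in p53R248W/+ and 13.4 ± 0.796 CPM in WT (SD, n = 2 each). Its log2 fold change of -1.25 ± 0.67 (SE) missed the threshold (adjusted p = 0.825, edgeR quasi-likelihood test) and lay between -1.41 and -1.13 with each library left out. Trp53cor1, known as lincRNA-p21, was at 6.54 and 2.56 CPM in p53R248W/+ and at 2.02 and 5.47 CPM in WT. It lies 11859 bases from Cdkn1a on chromosome 17, which was at 16.8 and 15.6 CPM in p53R248W/+ and at 74.3 and 39.9 CPM in WT. The Trp53cor1 libraries of the genotypes overlapped where those of Cdkn1a did not, and the difference between the 2 genes was not tested.

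Zmat3, an RNA-binding splicing regulator, was at 36.8 and 28.9 CPM in p53R248W/+ and at 19.7 and 42.9 CPM in WT. The p53R248W/+ values of Zmat3 lay between the WT values, as did those of the small GTPase gene Rap2b, at 25.6 and 23 CPM in p53R248W/+ and at 18.7 and 39.9 CPM in WT. Rchy1, a ubiquitin ligase of p53 also known as Pirh2, was at 58.6 and 48.1 CPM in p53R248W/+ and at 53.4 and 34.4 CPM in WT. It shares 187 exon bases with Thap6, and Zmat3 shares 162 with 4930429B21Rik.

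**Figure D3:**
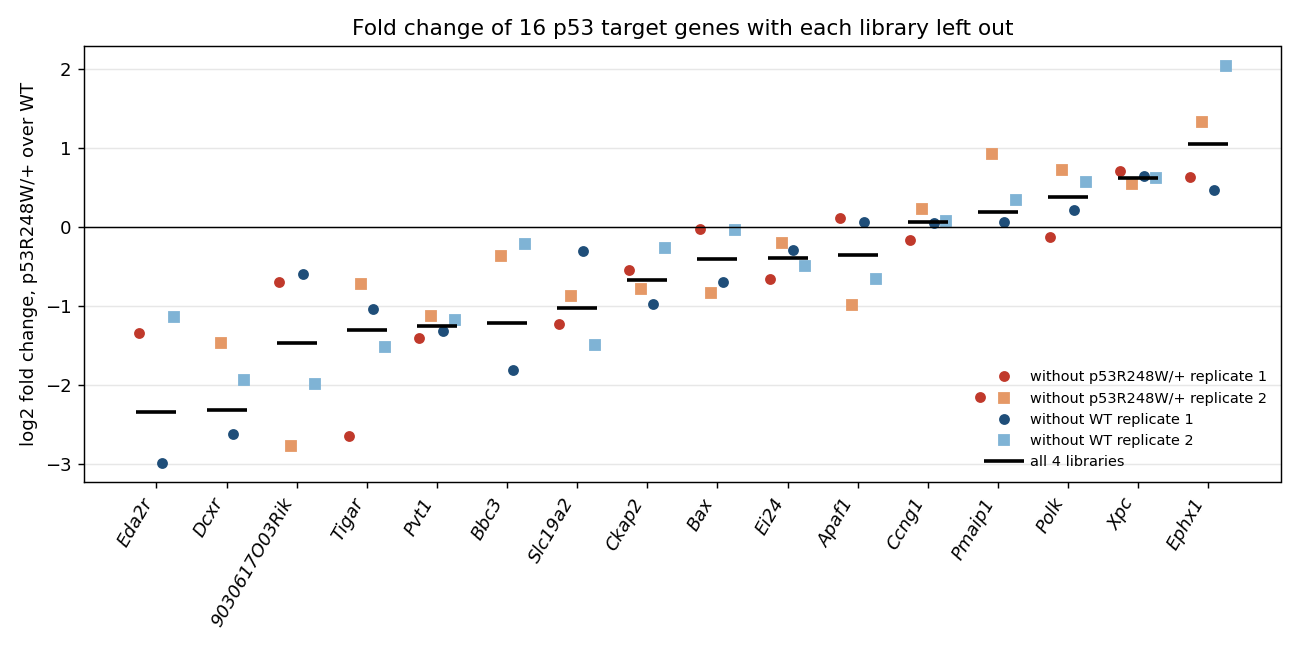
Log2 fold change of p53R248W/+ over WT for 16 p53 target genes with all 4 libraries (black bars) and with each library left out in turn (coloured points), without a point where the remaining libraries of a genotype held fewer than 3 counts. The points of Xpc stay between 0.55 and 0.71 and those of Pvt1 between -1.41 and -1.13, while those of Apaf1, Ccng1, Polk and Pmaip1 fall on both sides of 0.

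Across the tested members, 12 of 34 (35.3%) kept the direction of their fold change without each library in turn, 8 lower and 4 higher in p53R248W/+, as did 43.7% of all tested genes. Bbc3, Dcxr and Eda2r had no value in one of these fits, for want of counts, and are not among the 12. The higher ones were Xpc, Rrm2b, Ephx1 and Rchy1. For 29 of the 34 members (85.3%) the replicates of at least one genotype differed by more than the genotypes did, as for 76.1% of all tested genes. The median difference between replicates was 0.70 (log2) in p53R248W/+ and 0.62 in WT, where all tested genes had 0.42 and 0.43. Members were also lower in level than all tested genes, with a median of the mean CPM of 10.3 against 25.7. Highest levels fell most often in WT replicate 2, in 13 of the 36 genes, and lowest levels in WT replicate 1, in 12 of them.

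The error followed the level, which is in part built into a test that estimates spread from genes of like level. Ercc5 and Rap2b, at 26.4 and 26.8 CPM, had an SE of 0.43 and 0.46, with WT replicates that differed by -0.36 and -1.09 (log2). SE ran from 0.19 for Ccng1 to 1.46 for Bbc3, and the 95% interval lay within a 2-fold change either way for 5 members (14.7%), Ccng1, Plk2, Rrm2b, Trp53inp1 and Zmat3, against 34.5% of all tested genes. The intervals of the other members reached past a 2-fold change in at least one direction. Pmaip1, Eda2r and Dcxr reached the level of the filter in both WT libraries but not in both p53R248W/+ libraries, so they entered the test through WT.

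**Figure D4:**
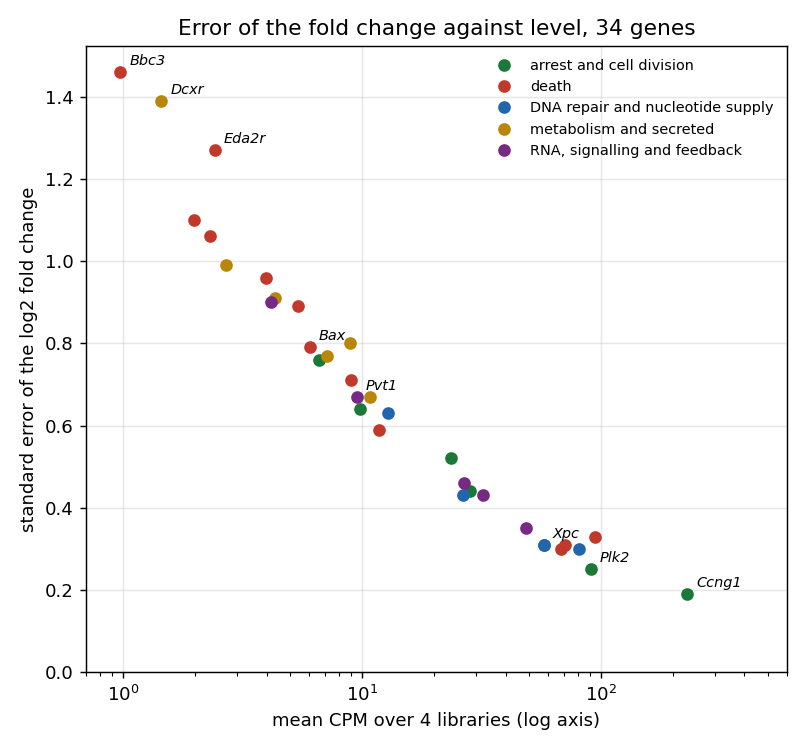
Standard error of the log2 fold change against mean CPM (log axis) for the 34 tested p53 target genes, coloured by role. The error falls with the level, in part by the way the test estimates spread, to 0.19 for Ccng1 at 230 CPM. Death and metabolism genes make up most of the upper left, up to 1.46 for Bbc3.

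Trp53 itself was at 245 and 332 CPM in p53R248W/+ and at 362 and 302 CPM in WT, and gene counts do not separate its alleles, so they give no check of the genotype. A wider list of 22 p53 pathway genes, which holds the regulators of p53, the checkpoint kinases and the targets left out of the 36, had 19 tested, 12 below 0 and 7 above, with a median log2 fold change of -0.06. None passed over all genes in the edgeR quasi-likelihood test, where Cdkn1a, the p21 inhibitor of the cell cycle, was the only one at an unadjusted p under 0.05, with a log2 fold change of -1.81 ± 0.44 (SE; adjusted p = 0.824). DESeq2 called Cdkn1a lower (adjusted p = 0.0492), and the other alternatives gave an adjusted p of 0.516 to 0.999. Mdm2, the ligase and target that degrades p53, was at 150 and 198 CPM in p53R248W/+ and at 201 and 160 CPM in WT, with an interval from -0.52 to 0.39. The fold change of Mdm2 turned without single libraries, as that of Ccng1 did, and that of Cdkn1a lay between -2.19 and -1.30. Other targets left out by name were below 0 for Sesn2 (-1.29), Btg2 (-0.55), Ddit4 (-0.52), Tap1 (-0.37) and Sesn1 (-0.09). Sesn3 (0.09) and Foxo3 (0.29) were above 0. In the wider list the genotypes did not overlap for 5 genes (26.3% of the 19 tested), 4 lower and 1 higher, against 33.6% of all genes.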

How the data were processed

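Messenger RNA of sorted LSK cells was sequenced in 4 libraries, 2 p53R248W/+ and 2 WT, grouped and numbered by their labels. The deposited table holds raw counts per gene symbol, as the authors obtained them. The tools named are FastQC 0.11.5, STAR 2.7.10a, featureCounts of Subread 2.0.3 and edgeR 3.40.2, with build mm10, all per the submitters' processing notes. Strand and multi-mapping settings are not given in the sources used here, so genes with shared exons or near-identical copies are less certain.

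Genes were filtered with filterByExpr (minimum count 10, total 15), scaled by TMM and compared with edgeR 4.0.16 in R 4.3.3 (quasi-likelihood test, robust, current method, genotype as the only term, Benjamini-Hochberg over 13296 genes, threshold 0.05). SE is the log2 fold change over the root of F. The test estimates spread in part over genes of like level, so the SE is not the replicate spread of the gene alone. Pvt1 and Slc19a2 both had an SE of 0.67, with WT replicates that differed by -0.12 and 1.19 (log2). The test was tried on simulated counts. The members and lists were chosen with earlier results of these data known. Full statistics were meant for the 12 members with the smallest p and for Ccng1, Bax, Bbc3 and Pmaip1. Errors printed for other members were chosen after their values were seen. In the wider pathway list they were meant for Trp53, Mdm2, Cdkn1a and any gene at an unadjusted p under 0.05. Alternatives were other scalings, DESeq2 1.42.0, limma-voom (limma 3.58.1), other filters, a block for the replicate number, and fits that left out 1 library. Ly6g was not analysed here. The labels do not call same-numbered libraries pairs, and these did not deviate together over the tested genes (correlation -0.00736). The numbers were thus not taken as pairs in the main fit. A correlation over all tested genes cannot exclude a pattern shared by some of them, such as that of the mitosis genes.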

Additional observations from a re-analysis of the deposited data

How the results depend on the processing

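No p53 target gene passed under any of the alternatives run, and over all genes 0 passed except 6 with DESeq2 and 1 without p53R248W/+ replicate 2 (the range with 1 library left out was 0 to 1; the cause was not tested). With the stricter filter (mean of 5 CPM, and 1 CPM reached in 2 libraries) 25 members were left, 12 of them below 0, with a median of 0.01. With 1 library left out the median log2 fold change of the members ranged from -0.29 (without WT replicate 1) to -0.01 (without WT replicate 2), and 17 to 24 members were below 0. Directions turned for Pmaip1 with limma-voom (-0.44), and with 1 library left out for Apaf1 (-0.99 to 0.12), Mdm2 (-0.27 to 0.13), Polk (-0.13 to 0.72), Ccng1 (-0.16 to 0.23), Pmaip1 (-2.15 to 0.92) and Trp53 (-0.44 to 0.0023). Cdkn1a passed with DESeq2 (adjusted p = 0.0492). The fits without p53R248W/+ replicate 1 gave no value for Bbc3 and Dcxr, and the fit without p53R248W/+ replicate 2 none for Eda2r, because fewer than 3 counts were left. With the replicate number as a block 0 genes passed and the members' median was -0.17, with 19 below 0. The legacy quasi-likelihood method, added after the data were seen, gave a median of -0.17 and 0 calls.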
